A study of Homo sapiens with 8 samples.

Results

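The genes described are 32 genes of blood coagulation and fibrinolysis, taken by gene symbol from the platform annotation of an Affymetrix expression array. They are 32 of the 18132 genes that a probe set with exactly 1 symbol named on the array, and they hold 85 of its 44988 such probe sets. Where a gene had several probe sets, the brightest on average over the 6 arrays stood for it. Of the 32 genes, 24 reached the signal floor in at least 1 group and were tested among 11383 genes; the floor was the median of all probe set values, 6.11 on the log2 scale of the deposited signals. The study asked how gene expression in hepatocellular carcinoma (HCC) lines changes under CU27, a compound known here by its code name alone. Hep3b and Huh7.5.1, both human HCC lines, were given 10 μM CU27 or the solvent DMSO for 48 h. The groups used were Hep3b with DMSO (replicates 2 and 3), Huh7.5.1 with DMSO (replicates 1 and 2) and Huh7.5.1 with CU27 (replicates 1 and 2), so n = 2 arrays in each. The titles call the replicates biological and say nothing of separate cultures, so the p-values measure the spread between these arrays.

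The Hep3b CU27 columns were left out because they are not independent measurements in the deposited table. At all 49395 probe sets, within 1e-06, the value of Hep3b CU27 replicate 3 could be computed from the DMSO values, as 2 times that of replicate 2 less that of replicate 3. For Hep3b CU27 replicate 2 the same held with 3 times and 2 times. CU27 was therefore compared with DMSO in Huh7.5.1 only, and Hep3b entered through its DMSO arrays.

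Most clotting factors and their inhibitors are made by hepatocytes and secreted into plasma. Tissue factor (F3) with factor VII starts the cascade, factor X and its cofactor factor V turn prothrombin (F2) into thrombin, and thrombin cuts fibrinogen into fibrin. Antithrombin, the protein C system and tissue factor pathway inhibitor restrain the cascade, and plasmin, made from plasminogen by its activators, dissolves the clot. Hepatic factors such as HNF1, HNF4 and C/EBP are known to act on many of the liver promoters of these genes, and the fibrinogen genes are known acute-phase genes that respond to interleukin 6.

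Marker genes and array quality were read first. All 7 hepatocyte markers analysed here reached the floor in every group, while PECAM1, CDH5, VWF and TEK (endothelium) and PTPRC, CD3E and MS4A1 (leukocytes) stayed below it in every group. Of the 6 endothelial markers, ENG reached the floor in each group (means 6.39, 6.63 and 6.50 in Hep3b, Huh7.5.1 DMSO and CU27) and KDR in Huh7.5.1 DMSO (6.17), and neither passed in a comparison. Of 6 leukocyte markers, 3 reached the floor in Hep3b DMSO and 2 in each Huh7.5.1 group. The summed signal of all 6, as log2, was 8.83 and 9.16 in Hep3b, 11.91 and 11.95 with DMSO in Huh7.5.1 and 11.15 and 11.70 with CU27. The largest part of the Huh7.5.1 DMSO sum was LYZ, with a mean of 11.84 there and 7.72 in Hep3b. CD14 and CD68 were lower in Huh7.5.1 than in Hep3b, at -2.09 ± 0.19 and -0.50 ± 0.19. With CU27, CD68 rose 2.25 ± 0.20 (log2, limma adjusted p = 0.000394), CD14, under the floor in Huh7.5.1, fell by 0.69 ± 0.18 (adjusted p = 0.0214), and LYZ differed by -0.84 ± 0.29 (adjusted p = 0.0657); their part in the results was not tested. The 3′ minus 5′ difference of the ACTB control probe sets was 1.60 and 2.28 in the Hep3b arrays and 0.94 to 1.21 in the 4 Huh7.5.1 arrays, and that of GAPDH was 0.32 and 0.43 against 0.05 to 0.14. The Hep3b DMSO arrays held the same value at 1086 probe sets, 2 of them of HRG and PLAT, and none of the other 14 pairs of arrays shared a value. Arrays of a group correlated at 0.991 to 0.994 over probe sets.

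CU27 lowered the expression of 11 of the 24 tested coagulation genes in Huh7.5.1 and raised 1. The genes that fell were FGG (fibrinogen gamma chain), F2, F7, F3, F5, KNG1 (kininogen), PROC (protein C), SERPINC1 (antithrombin), TFPI, TFPI2 and CPB2 (an inhibitor of fibrinolysis), and the gene that rose was PLAUR, the receptor of urokinase. KNG1 fell most, 5.02-fold, followed by PROC at 2.68-fold. The 11 of 24 that fell stand against 12.1% of all genes tested, and the 1 of 24 that rose against 12.6%, by limma with Benjamini-Hochberg adjusted p under 0.05, two-sided; 24.7% of all genes passed in either direction. Of the 11, 6 fell at least 2-fold (F7, KNG1, PROC, SERPINC1, TFPI and CPB2), against 3.01% of all genes, and none rose that much, against 2.96%. The median difference over the 24 members was -0.61 on the log2 scale and 0.02 over all genes tested. In these bulk RNA samples, fewer cells of a type and less RNA per cell cannot be told apart.

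How firmly each fall is held differed between genes. The alternative analyses include a fit on all 8 columns, whose Hep3b CU27 columns are computed values, so passing there adds no support. KNG1, PROC, F7 and SERPINC1 passed the test in all 17 alternative analyses. The count of members that fell dropped from 11 to 4 without Huh7.5.1 DMSO replicate 2, and also to 4 without Huh7.5.1 CU27 replicate 2; it was 8 without DMSO replicate 1 and 13 without CU27 replicate 1. Over all genes the count that fell went from 1380 to 440, 839, 839 and 1309 under these settings, in the same order. Without CU27 replicate 2 the difference shrank to -0.45 for FGG, -0.68 for CPB2, -0.67 for TFPI, -0.36 for TFPI2 and 0.43 for PLAUR. CU27 replicate 2 lay below CU27 replicate 1 in 20 of the 24 members, with a median difference of -0.36, where 40.6% of all tested genes lay lower and their median difference was 0.06. DMSO replicate 2 lay above DMSO replicate 1 in 19 of 24 members, with a median difference of 0.17 against 0.02 over all tested genes. The part of these array differences in the falls was not tested beyond leaving out each array.

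**Figure D1:**
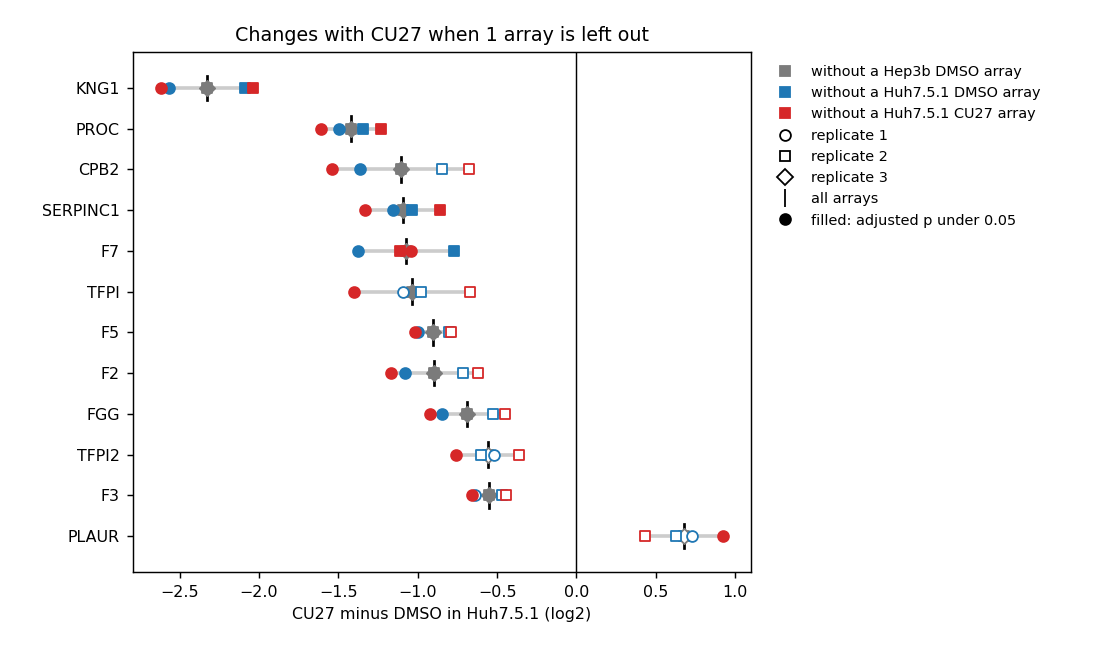
Difference between CU27 and DMSO in Huh7.5.1 (log2, x axis) for the 12 coagulation genes past the test, with all arrays (black tick) and with each of the 6 arrays left out (coloured markers, filled where the adjusted p was under 0.05). KNG1, PROC, SERPINC1 and F7 stayed filled throughout, whereas the other 8 genes turned open without replicate 2 of either Huh7.5.1 group.

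Between the lines in DMSO, 16 of the 24 tested coagulation genes differed, 7 higher and 9 lower in Huh7.5.1 than in Hep3b. Huh7.5.1 was far higher in SERPINC1 and TFPI2, both below the floor in Hep3b, and higher in FGB and F3. Hep3b was higher in F2, F7, F10, KNG1, PROZ, SERPINA5, SERPINA10, SERPIND1 and SERPINF2. Among all genes tested, 31.5% were higher and 30.8% lower (62.3% together), so the members' counts lie near the background; the at least 2-fold counts were 4 higher, against 14.8% of all genes, and 8 lower, against 12.4%. The median difference was 0.05 over the members and 0.02 over all genes.

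The line comparison was made on arrays centred on their median, since Huh7.5.1 arrays read 0.20 higher in general, and its differences are relative to that shift. On the deposited scale without centring, 4671 genes were higher and 2612 lower, in place of 3591 and 3501, and the members split 10 higher and 9 lower. After quantile normalisation the split was 3145 higher and 3850 lower, with 8 members higher and 9 lower. The larger ACTB and GAPDH 3′ minus 5′ differences of the Hep3b arrays move with the line contrast, and their part in it was not tested. The CU27 and line comparisons share the Huh7.5.1 DMSO arrays, so each gene's values are given side by side below and are not set against each other.

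**Figure D2:**
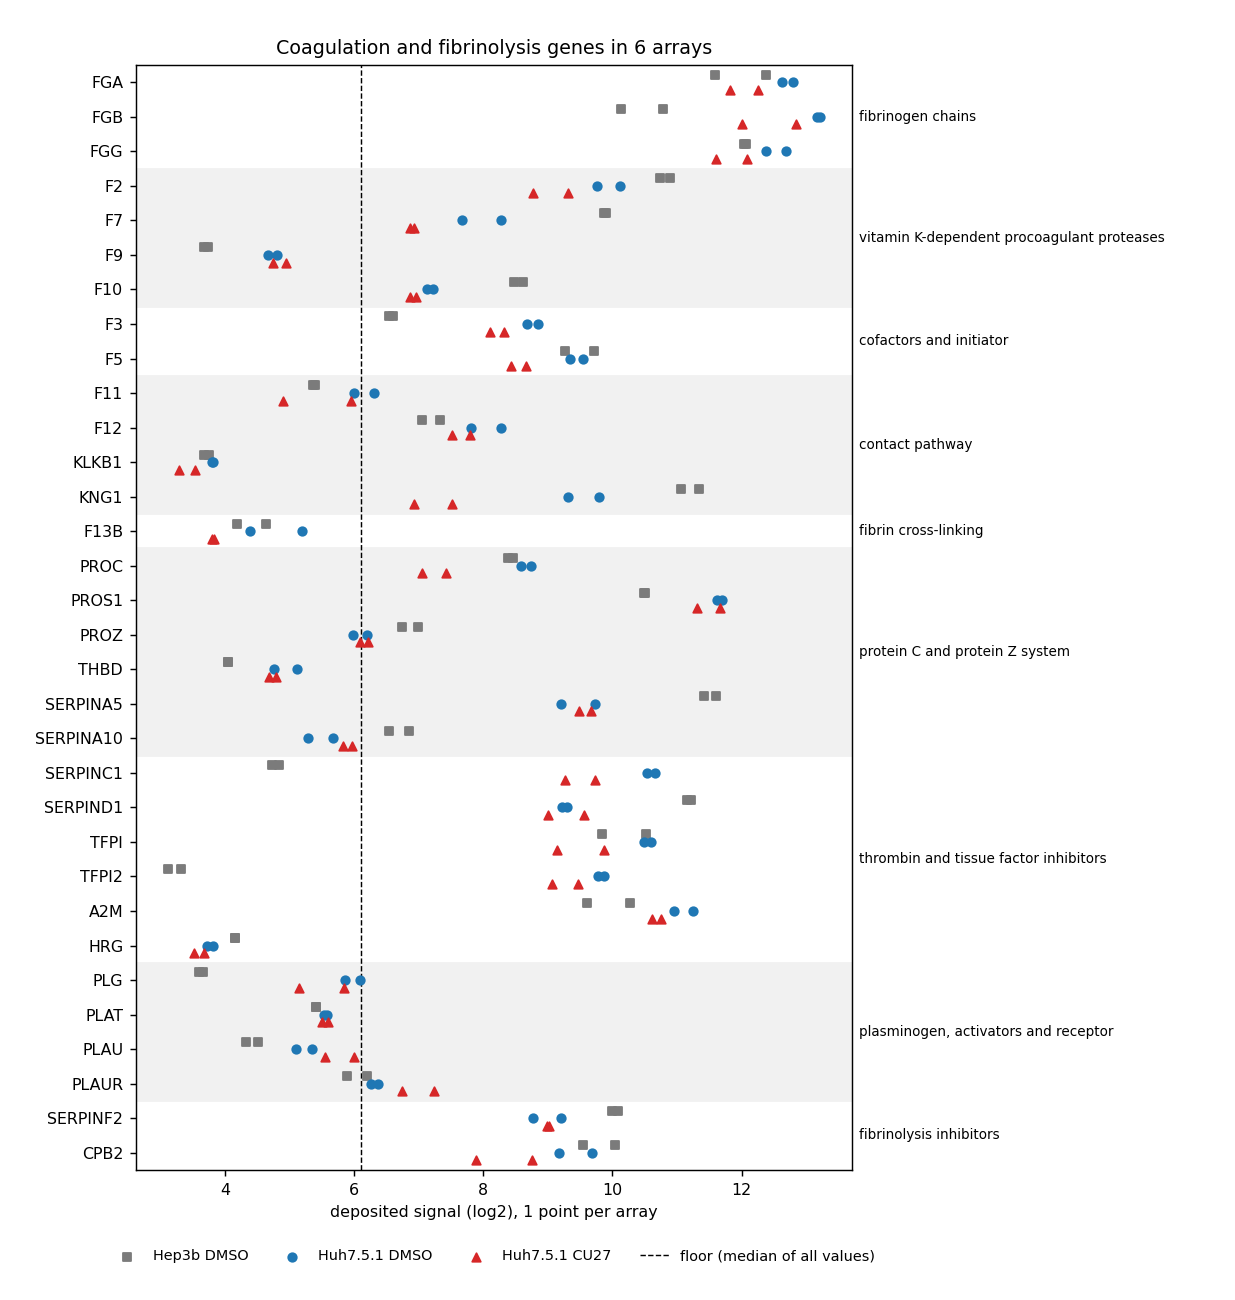
Deposited signal (log2, x axis) of the chosen probe set of all 32 coagulation genes, grouped by role, with 1 point for each of the 6 arrays; the dashed line is the floor of 6.11. SERPINC1 and TFPI2 sit below the floor in Hep3b and near 10 in the Huh7.5.1 arrays, and 8 genes lie left of the floor as group means in all 3 groups.

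Fibrinogen is built from 3 chains whose genes, FGB, FGA and FGG, lie next to each other on chromosome 4. Their promoters are shown because the 3 neighbours all read lower with CU27. The sequences are the 250 bases before each gene's start, 5′ to 3′ on the gene's strand, from RefSeq, build GRCh38.p14: FGB at chr4:154562730-154562979 on the plus strand (the upstream of 2 annotated starts), FGA at chr4:154590743-154590992 and FGG at chr4:154612657-154612906, both on the minus strand. Capitals mark GTTAAT (the core of an HNF1 site), CTGGGAA (an interleukin 6 response element) and TTGCNNAA (a C/EBP type), each on either strand.
FGB: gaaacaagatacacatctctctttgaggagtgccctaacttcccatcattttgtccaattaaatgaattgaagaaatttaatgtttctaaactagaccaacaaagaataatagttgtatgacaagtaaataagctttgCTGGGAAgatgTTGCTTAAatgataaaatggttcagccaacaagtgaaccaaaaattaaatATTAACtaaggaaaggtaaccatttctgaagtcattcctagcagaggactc
FGA: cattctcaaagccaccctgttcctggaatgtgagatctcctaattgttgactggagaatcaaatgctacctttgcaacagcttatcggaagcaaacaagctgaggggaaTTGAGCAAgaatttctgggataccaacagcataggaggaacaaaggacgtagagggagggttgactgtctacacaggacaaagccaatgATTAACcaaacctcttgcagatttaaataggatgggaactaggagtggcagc
FGG: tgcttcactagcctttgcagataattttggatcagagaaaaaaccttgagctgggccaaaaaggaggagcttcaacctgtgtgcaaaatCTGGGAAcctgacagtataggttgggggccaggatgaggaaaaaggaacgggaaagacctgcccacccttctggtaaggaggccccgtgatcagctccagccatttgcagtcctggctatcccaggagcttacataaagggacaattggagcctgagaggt
FGB held all 3 motifs, FGA held the HNF1 core and the C/EBP type, and FGG held the interleukin 6 element. The HNF1 core began 51 bases before the FGB start and 52 bases before the FGA start. These matches are descriptions of letters and not of bound sites.

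FGG, the gamma chain, read 12.38 and 12.70 in Huh7.5.1 DMSO, 12.08 and 11.61 in CU27, and 12.07 and 12.03 in Hep3b DMSO. Both CU27 arrays lay below both Huh7.5.1 DMSO arrays, and FGG fell by 0.69 ± 0.16 (log2, SE, adjusted p = 0.0137). Its call was lost without replicate 2 of either Huh7.5.1 group, with adjusted p from 0.00508 to 0.113 over the alternatives. FGA, the alpha chain, read 12.62 and 12.79, then 12.25 and 11.82, and in Hep3b 11.59 and 12.38. The CU27 arrays again lay below both DMSO arrays without overlap, and the difference of -0.67 ± 0.23 did not pass (adjusted p = 0.065). FGB, the beta chain, read 13.21 and 13.17 in DMSO, 12.85 and 12.01 in CU27, and 10.14 and 10.79 in Hep3b, a CU27 difference of -0.76 ± 0.26 that did not pass (adjusted p = 0.0659). FGA passed in 6 of the alternatives and FGB in 5. All 5 FGA probe sets read lower with CU27, between -1.20 and -0.60, as did all 4 of FGB, between -1.49 and -0.55. Both FGG probe sets read lower, at -0.73 and -0.69. Both are of the _x_at or _s_at kind, which can cross-hybridise, so FGG was not in the fit without such probe sets.

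Of the chosen fibrinogen probe sets, FGB alone passed between the lines. It was 2.52 ± 0.28 higher in Huh7.5.1 (adjusted p = 2.705e-05), with both Hep3b arrays below every Huh7.5.1 array. FGA differed by 0.52 ± 0.25 (adjusted p = 0.0912) and FGG by 0.28 ± 0.17 (adjusted p = 0.171), neither past the test, though FGA passed as higher in 7 alternatives and FGG in 5. In the fit of all probe sets, the 4 other FGA probe sets were higher in Huh7.5.1 by 0.62 to 1.49 and the other FGG probe set by 0.91, all past the test. F13B, the carrier subunit of the factor XIII that cross-links fibrin, stayed below the floor in every group.

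The vitamin K-dependent proteases F2, F7, F9 and F10 need carboxylated glutamates to bind membranes. F7 (factor VII) read 7.67 and 8.28 in Huh7.5.1 DMSO, 6.86 and 6.93 in CU27, and 9.87 and 9.90 in Hep3b. The 3 groups did not overlap, Hep3b being highest and CU27 lowest. F7 fell by 1.08 ± 0.20 with CU27 (adjusted p = 0.0061) and was lower in Huh7.5.1 than in Hep3b, at -2.11 ± 0.19 (adjusted p = 7.532e-06). With 1 array left out in turn, F7 differed with CU27 by between -1.38 and -0.77. Of its 3 probe sets, 2 read lower with CU27 and 1 read higher, at 0.13, and the mean of all 3 gave -0.67, still past the test.

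F2 (prothrombin) read 9.76 and 10.12 in Huh7.5.1 DMSO, 9.32 and 8.77 in CU27, and 10.89 and 10.74 in Hep3b. The order of the groups was that of F7, again without overlap. F2 fell by 0.90 ± 0.20 with CU27 (adjusted p = 0.0128, lost without replicate 2 of either Huh7.5.1 group, range 0.00594 to 0.105 over the alternatives) and was lower in Huh7.5.1, at -1.08 ± 0.20 (adjusted p = 0.000944). The other F2 probe sets gave smaller CU27 differences in the limma fit of all probe sets. One at -0.57 did not pass (adjusted p = 0.0604) and one at -0.62 did (adjusted p = 0.0416). F10 (factor X) lies beside F7 on chromosome 13 and read 7.13 and 7.23 in DMSO, 6.86 and 6.96 in CU27, and 8.47 and 8.62 in Hep3b. Its CU27 arrays were lower without overlap, yet the difference of -0.27 ± 0.15 did not pass (adjusted p = 0.222). The line difference of F10 was -1.57 ± 0.15 (adjusted p = 1.249e-05). F9 (factor IX) was below the floor in all groups.

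The cofactors and the initiator both fell. F5 (factor V, the cofactor of factor X) read 9.35 and 9.54 with DMSO in Huh7.5.1 and 8.66 and 8.43 in CU27, a fall of 0.90 ± 0.18 (adjusted p = 0.00848). All 4 of its probe sets read lower, between -1.45 and -0.90. Hep3b read 9.72 and 9.27, on either side of the Huh7.5.1 DMSO arrays, and the line difference of -0.25 ± 0.17 did not pass (adjusted p = 0.223). F3 (tissue factor) read 8.68 and 8.85 in DMSO, 8.32 and 8.11 in CU27, and 6.55 and 6.60 in Hep3b. It fell by 0.55 ± 0.15 with CU27 (adjusted p = 0.0292) and was 1.99 ± 0.16 higher in Huh7.5.1 than in Hep3b (adjusted p = 3.498e-06). The F5 fall was lost without replicate 2 of either Huh7.5.1 group (adjusted p 0.00247 to 0.075 over the alternatives), and the F3 fall without those arrays, without DMSO replicate 1 and as the mean of all probe sets (-0.43, adjusted p = 0.0738; range 0.0176 to 0.192). The other F3 probe sets gave -0.40 and -0.35 with CU27 and did not pass.

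In the contact pathway, which can start clotting on charged surfaces, KNG1 carried the largest fall of all members. It encodes kininogen, the cofactor of factor XI and prekallikrein and the source of bradykinin. KNG1 read 9.32 and 9.79 in Huh7.5.1 DMSO, 7.52 and 6.94 in CU27, and 11.07 and 11.34 in Hep3b. The groups did not overlap, with Hep3b highest and CU27 lowest. It fell by 2.33 ± 0.23 (adjusted p = 0.000658), all 4 probe sets read lower by between -2.33 and -1.84, and the line difference was -1.85 ± 0.24 (adjusted p = 7.224e-05). Its neighbour HRG, a plasma glycoprotein that binds heparin and plasminogen, was below the floor in every group, from 3.52 to 4.15.

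The KNG1 promoter is shown because the gene changed most. It spans chr3:186717109-186717358 on the plus strand of GRCh38.p14 (RefSeq) and holds a TTGCNNAA match, in capitals.
KNG1: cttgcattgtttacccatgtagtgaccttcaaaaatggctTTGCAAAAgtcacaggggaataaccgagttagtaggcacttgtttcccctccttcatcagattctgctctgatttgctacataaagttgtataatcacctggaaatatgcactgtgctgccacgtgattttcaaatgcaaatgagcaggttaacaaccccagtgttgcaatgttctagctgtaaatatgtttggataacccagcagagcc
It held no match to GTTAAT or CTGGGAA in these 250 bases.

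The other contact genes did not pass with CU27. F12 (factor XII) read 7.82 and 8.27 in DMSO, 7.51 and 7.79 in CU27, and 7.33 and 7.05 in Hep3b, with a CU27 difference of -0.39 ± 0.20 (adjusted p = 0.187). F12 has 1 probe set, of the _x_at kind, and was not in the fit without _x_at and _s_at probe sets. It was 0.65 ± 0.19 higher in Huh7.5.1 than in Hep3b (adjusted p = 0.011), a call lost without Hep3b replicate 3 and without Huh7.5.1 DMSO replicate 2 (0.43). F11 (factor XI) read 6.31 and 6.002 in DMSO, 5.95 and 4.90 in CU27 and 5.39 and 5.36 in Hep3b, near or below the floor. Neither its CU27 difference of -0.73 ± 0.30 (adjusted p = 0.111) nor its line difference of 0.57 ± 0.31 (adjusted p = 0.137) passed. KLKB1 (prekallikrein), next to F11, was below the floor throughout; a further probe set shared with CYP4V2 was not used.

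**Figure D3:**
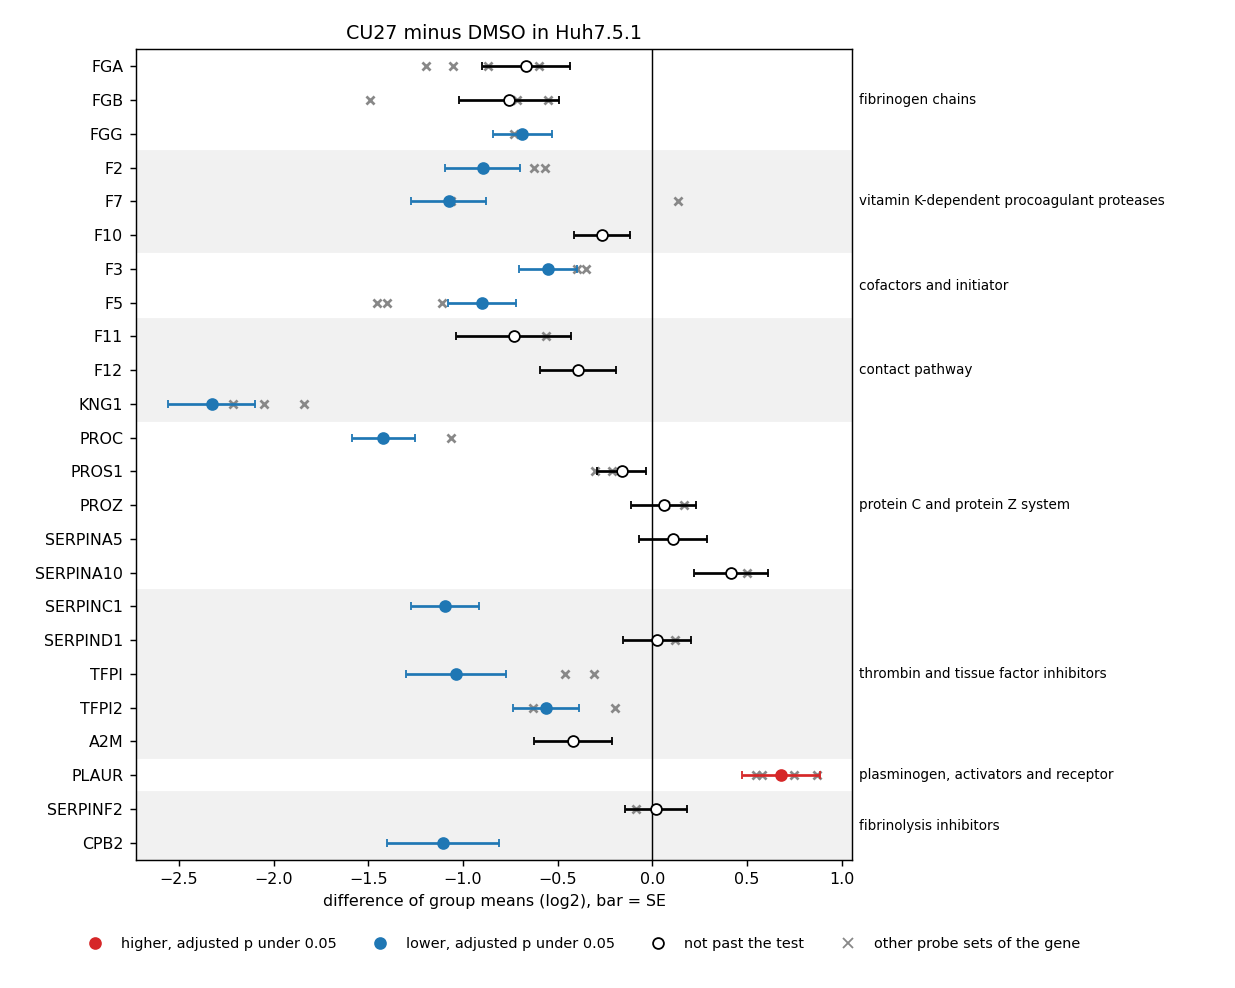
Difference between the CU27 and DMSO group means in Huh7.5.1 (log2, x axis; bars, SE from limma) for the 24 tested coagulation genes, with grey crosses for each gene's other probe sets. The 11 genes in blue fell, PLAUR in red rose, and open circles did not pass the adjusted p of 0.05; KNG1 lies farthest left at -2.33.

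The protein C and protein Z system held 1 gene that fell and 4 tested genes that did not pass. PROC, the anticoagulant protein C, read 8.58 and 8.73 in Huh7.5.1 DMSO, 7.42 and 7.05 in CU27, and 8.46 and 8.39 in Hep3b. The CU27 arrays lay below all the others, while the line difference was 0.03 ± 0.17 (adjusted p = 0.897). PROC fell by 1.42 ± 0.17 (adjusted p = 0.00115), and its other probe set gave -1.06. Between the lines that other probe set was lower in Huh7.5.1, at -0.78 in the fit of all probe sets (adjusted p = 0.0033). THBD (thrombomodulin), which lets thrombin activate protein C, was below the floor.

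PROS1 (protein S, the cofactor of activated protein C) read 11.62 and 11.70 in DMSO, 11.67 and 11.32 in CU27, and 10.50 and 10.48 in Hep3b. The Huh7.5.1 groups overlapped (difference -0.16 ± 0.13, adjusted p = 0.395), and Huh7.5.1 was 0.96 ± 0.14 above Hep3b (adjusted p = 0.000211). SERPINA5 (the protein C inhibitor) read 9.20 and 9.74, 9.67 and 9.48, and 11.42 and 11.61 in the same order. It gave 0.11 ± 0.18 with CU27 (adjusted p = 0.72) and was lower in Huh7.5.1, at -2.25 ± 0.19 (adjusted p = 3.872e-06).

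PROZ (protein Z) and SERPINA10 (the protein Z-dependent inhibitor of factor X) were above the floor as group means in Hep3b, and SERPINA10 there alone. PROZ read 6.99 and 6.73 in Hep3b, 5.98 and 6.20 in Huh7.5.1 with DMSO, and 6.22 and 6.09 in CU27. Its Huh7.5.1 DMSO mean lay just under the floor, and it was at least 1.69-fold lower there than in Hep3b (adjusted p of the full difference = 0.000829). The PROZ probe sets gave line differences from -0.97 to 0.58, where the 0.58 came from a probe set under the floor in every array. The 2 tested PROZ probe sets were both lower in Huh7.5.1, at -1.08 and -1.06 in the fit of all probe sets. SERPINA10 read 6.85 and 6.53 in Hep3b, 5.68 and 5.29 in Huh7.5.1 with DMSO and 5.97 and 5.83 in CU27. It was at least 1.496-fold lower in Huh7.5.1 DMSO than in Hep3b (adjusted p of the full difference = 0.000158). With CU27 PROZ and SERPINA10 differed by 0.06 ± 0.17 and 0.42 ± 0.20, and neither passed (adjusted p = 0.848 and 0.157). Beside F7 and F10, PROZ is the third member in a row on chromosome 13, with F10-AS2 between F10 and PROZ in the RefSeq gene table, and all 3 were lower in Huh7.5.1 than in Hep3b. So were the genes on either side of them that are not members, MCF2L beside F7 at -1.64 ± 0.18 and PCID2 beside PROZ at -1.60 ± 0.13.

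Of the direct inhibitors of thrombin and tissue factor, 3 fell with CU27. SERPINC1 (antithrombin, the main inhibitor of thrombin and factor X) read 10.54 and 10.66 in Huh7.5.1 DMSO, 9.74 and 9.26 in CU27, and 4.73 and 4.84 in Hep3b. All Huh7.5.1 arrays were well above the floor and both Hep3b arrays below it. SERPINC1, read by 1 probe set, fell by 1.10 ± 0.18 with CU27 (adjusted p = 0.00378). With 1 array left out in turn, the difference lay between -1.33 and -0.86. SERPINC1 was at least 19.5-fold higher in Huh7.5.1 than in Hep3b (adjusted p of the full difference = 1.022e-08).

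TFPI, the inhibitor of tissue factor with factor VII, read 10.48 and 10.60 in DMSO, 9.87 and 9.14 in CU27, and 10.52 and 9.84 in Hep3b. The Huh7.5.1 groups did not overlap, and the Hep3b arrays overlapped with both. TFPI fell by 1.04 ± 0.26 (adjusted p = 0.022). Its other probe sets gave smaller differences, -0.46 and -0.31, that did not pass in a fit of all probe sets. The fall was lost without DMSO replicate 1 and without replicate 2 of either Huh7.5.1 group (adjusted p 0.00278 to 0.268 over the alternatives), and it shrank to -0.60 as the mean of all probe sets and -0.31 without the _x_at and _s_at probe sets, neither past the test. The line difference of 0.16 ± 0.25 did not pass (adjusted p = 0.599), whereas the other TFPI probe sets were higher in Huh7.5.1, by 0.98 and 1.21 in the fit of all probe sets, and passed. TFPI2, a related inhibitor of plasmin and other proteases, read 9.87 and 9.78 in DMSO, 9.46 and 9.07 in CU27, and 3.13 and 3.32 in Hep3b. It fell by 0.56 ± 0.17 with CU27 (adjusted p = 0.0458), a call lost in 9 alternatives (0.0168 to 0.226), 5 of them the leaving out of an array. By its chosen probe set, TFPI2 was at least 11.4-fold higher in Huh7.5.1 than in Hep3b (adjusted p of the full difference = 4.947e-09). The other tested TFPI2 probe set was dimmer with DMSO in Huh7.5.1, at 8.73 and 8.81, so its bound would be smaller. Its line difference was 5.82 in the limma fit of all probe sets (adjusted p = 4.278e-08). The remaining probe set stayed below the floor in every group, with a line difference of 1.51. All 3 are of the _x_at or _s_at kind, so TFPI2 was not in the fit without such probe sets.

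SERPIND1 (heparin cofactor II, a thrombin inhibitor) and A2M (alpha-2-macroglobulin, a broad protease trap) did not pass with CU27. SERPIND1 read 9.22 and 9.30 in DMSO and 9.57 and 8.998 in CU27, which overlap, and 11.15 and 11.22 in Hep3b. Its CU27 difference was 0.02 ± 0.18 (adjusted p = 0.947) and its line difference -2.13 ± 0.19 (adjusted p = 6.554e-06). A2M read 10.95 and 11.25 in DMSO, 10.75 and 10.61 in CU27, and 10.27 and 9.60 in Hep3b. It differed by -0.42 ± 0.21 with CU27 (adjusted p = 0.173) and was 0.96 ± 0.19 higher in Huh7.5.1 than in Hep3b (adjusted p = 0.00138).

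The plasminogen genes were mostly under the floor. PLG (plasminogen), PLAT (tissue-type activator) and PLAU (urokinase) did not reach it in any group mean. PLG came nearest, at 5.86 and 6.09 in Huh7.5.1 with DMSO and 5.85 and 5.15 in CU27, against 3.59 and 3.66 in Hep3b. PLAU read 5.10 and 5.35 in DMSO and 5.99 and 5.55 in CU27. These values lie under the floor and were not tested.

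PLAUR was the single member that rose. It read 6.37 and 6.26 in Huh7.5.1 DMSO, 6.75 and 7.24 in CU27, and 5.89 and 6.20 in Hep3b, so that the CU27 arrays were the highest. The rise was 0.68 ± 0.20 (adjusted p = 0.0401), and all 5 probe sets read higher, between 0.55 and 0.87. In the limma fit of all probe sets, the chosen one did not pass (adjusted p = 0.0503). Only the probe set at 0.87 passed there (adjusted p = 0.0416). The call was lost in 7 alternatives (adjusted p 0.0183 to 0.215), 5 of them the leaving out of an array: either Hep3b array, either Huh7.5.1 DMSO array or CU27 replicate 2. The line difference was 0.06 ± 0.20 (adjusted p = 0.807).

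Of the fibrinolysis inhibitors, CPB2 fell and SERPINF2 did not pass. CPB2, a carboxypeptidase that trims plasminogen binding sites from fibrin, read 9.17 and 9.69 in DMSO, 8.76 and 7.89 in CU27, and 10.04 and 9.54 in Hep3b. It fell by 1.11 ± 0.30 with CU27 (adjusted p = 0.026, lost without replicate 2 of either Huh7.5.1 group, range 0.00847 to 0.174), and its line difference of -0.56 ± 0.29 did not pass (adjusted p = 0.112). SERPINF2 (alpha-2-antiplasmin, the plasmin inhibitor) read 8.77 and 9.20, then 9.01 and 8.99, and 10.08 and 10.00 in Hep3b. Its CU27 arrays lay between the DMSO arrays, with a difference of 0.02 ± 0.16 (adjusted p = 0.953). SERPINF2 was lower in Huh7.5.1 than in Hep3b, at -1.26 ± 0.16 (adjusted p = 7.39e-05). The mean of all its probe sets gave -0.81, still past the test. Its other probe set alone gave -0.19 in the fit of all probe sets and did not pass (adjusted p = 0.476). Whether CPB2 and SERPINF2 differ in their response was not tested.

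**Figure D4:**
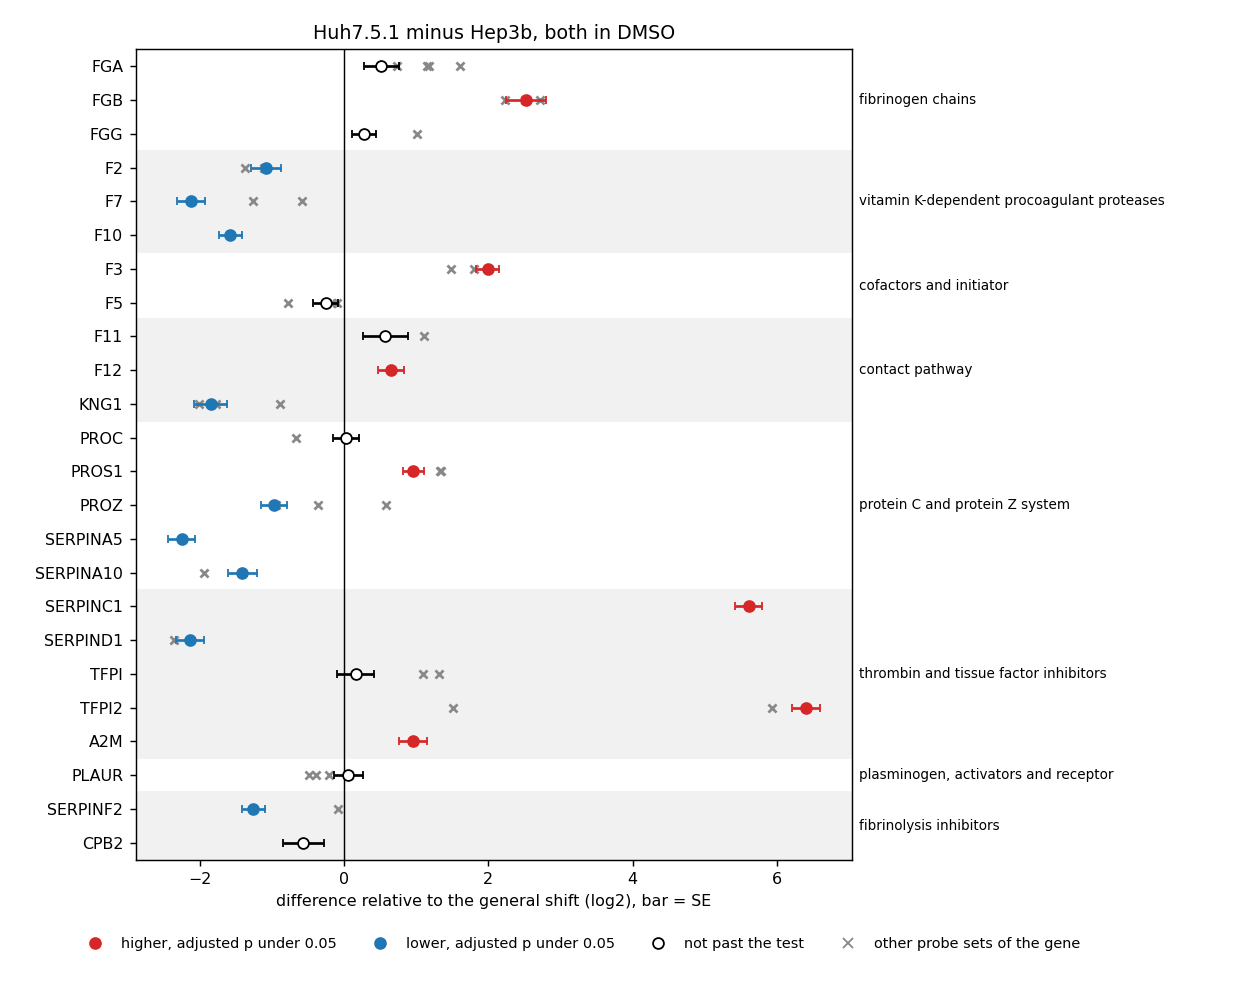
Difference between Huh7.5.1 and Hep3b in DMSO (log2 relative to the general shift of 0.20, x axis; bars, SE from limma) for the 24 tested coagulation genes, with grey crosses for each gene's other probe sets. TFPI2 (6.40) and SERPINC1 (5.61) lie farthest right, and the 9 genes in blue, from SERPINA5 (-2.25) to PROZ (-0.97), were lower in Huh7.5.1.

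Arrays without overlap gave a broader count than the test. The CU27 arrays lay entirely below the DMSO arrays in 17 of the 24 members and entirely above in 2, against 31% and 32.9% of all genes tested, or 63.8% in either direction. The members below without passing the test were FGA, FGB, F10, F11, F12 and A2M. Between the lines, 9 members were entirely higher and 10 entirely lower in Huh7.5.1, against 42.2% and 40.8% of all genes, or 83.1% in either direction.

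All probe sets of the members were fitted as well, a choice made after seeing the data. Of the 85, 56 reached the floor in a group, and 21 fell and 1 rose with CU27, against 11.3% and 10.5% of the 25602 probe sets tested. Between the lines, 22 were lower and 21 higher, against 29.6% and 30.7%. Probe sets of a gene share its RNA and are no replicates. The 29 other probe sets, with all 23 of F9, KLKB1, F13B, THBD, HRG, PLG, PLAT and PLAU among them, stayed below the floor.

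Genes that make or accompany the factors were read from a separate list of 32, of which 29 were analysed here and 22 tested. With CU27, 6 fell and 2 rose, against 12.1% and 12.6% of all genes tested, and the median difference was -0.06. In the vitamin K cycle, GGCX (the carboxylase) fell by 0.73 ± 0.20 (adjusted p = 0.0271) and VKORC1, which recycles the vitamin, rose by 0.72 ± 0.16 (adjusted p = 0.0138). MCFD2, a part of the export receptor of factors V and VIII, fell by 0.56 ± 0.12 (adjusted p = 0.0111), which shrank to -0.28 (adjusted p = 0.139) as the mean of all probe sets and to -0.16 (adjusted p = 0.477) without the _x_at and _s_at probe sets. Of 9 other tested regulators, 4 fell. C4BPA, the alpha chain of C4b-binding protein, fell by 2.05 ± 0.33 (adjusted p = 0.00344), from 9.97 and 9.91 in DMSO to 8.52 and 7.26 in CU27. C4BPB, the beta chain, which binds protein S, differed by -0.03 ± 0.16 (adjusted p = 0.909). SERPINA1 (alpha-1-antitrypsin) fell by 0.66 ± 0.08 (adjusted p = 0.00126), SERPING1 (the C1 and contact inhibitor) by 0.87 ± 0.16 (adjusted p = 0.00674) and APOH by 0.67 ± 0.19 (adjusted p = 0.0305). PLGRKT, a plasminogen receptor, rose by 0.62 ± 0.14 (adjusted p = 0.0154). C4BPA and SERPINA1 passed in all 17 alternatives; leaving out an array ended the calls of GGCX, VKORC1, MCFD2, APOH, SERPING1 and PLGRKT, and Huh7.5.1 DMSO replicate 2 did so for each of these 6. Without CU27 replicate 2 the difference was -0.42 for GGCX and -0.37 for APOH.

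Between the lines, 9 genes of that list were higher and 8 lower in Huh7.5.1, against 31.5% and 30.8% of all genes tested, with a median difference of 0.17. S100A10, a cell-surface partner of plasminogen, was 4.33 ± 0.12 higher in Huh7.5.1 (adjusted p = 2.923e-09). APOH, a phospholipid-binding plasma protein, was lower there, at -3.79 ± 0.20 (adjusted p = 1.753e-07). HABP2, a factor VII-activating protease, was also lower in Huh7.5.1, at -1.96 ± 0.20 (adjusted p = 1.762e-05). It reached the floor in Hep3b alone (mean 7.70, against 5.95 in Huh7.5.1 DMSO), so the size of its difference rests partly on signal under the floor. VTN (vitronectin) was 1.13 ± 0.12 higher (adjusted p = 1.972e-05). F2R, the main thrombin receptor, was 0.98 ± 0.21 higher in Huh7.5.1 (adjusted p = 0.00202). Its mean was just above the floor in Huh7.5.1 DMSO (6.25) and under it in Hep3b (5.07). The size of its difference thus rests on signal under the floor. Of the 4 protease-activated receptors listed, 3 were analysed, and F2RL2 and F2RL3 stayed below the floor.

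Some hepatocyte markers fell in the same arrays. With CU27, 3 of the 7 fell, against 12.1% of all genes tested: TTR fell by 0.94 ± 0.15 (adjusted p = 0.00339), APOB fell by 1.28 ± 0.15 (adjusted p = 0.00126) and AHSG fell by 1.40 ± 0.12 (adjusted p = 0.000394). ALB differed by -0.10 ± 0.06 (adjusted p = 0.276) and AFP by -0.23 ± 0.14 (adjusted p = 0.27), neither past the test. The part of hepatocyte identity in the coagulation changes was not tested.

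The promoters of 27 of the 32 members were in the RefSeq table and were searched over 250 bases before each annotated start, on both strands. GTTAAT was held by 7 of the 27 (25.9%): FGA, FGB, F2, KLKB1, F13B, SERPINA10 and PLG, against 7.5% of 27305 genes in the table and 5.42% of those tested here. TTGCNNAA was held by 9 (33.3%), against 11%, CTGGGAA by 5 (18.5%), against 11.1%, and TGNACTTTG, an HNF4 type, by 3 (11.1%; F9, PROZ and SERPIND1), against 1.17%. The full HNF1 palindrome and TTGCGCAA, the C/EBP palindrome, matched no member, and 0.0586% and 0.146% of all genes. GTTAAT lies within the HNF1 palindrome, TTGCGCAA is a form of TTGCNNAA, and genes with several starts have more windows to match. The last 150 bases before the start of 4 further genes with the HNF1 core are shown, since they place the same letters in genes of different roles: F2 at chr11:46719063-46719212 (plus strand), F13B at chr1:197067261-197067410 (minus), KLKB1 at chr4:186227357-186227506 (plus) and SERPINA10 at chr14:94293269-94293418 (minus, 1 of 2 annotated starts). Capitals mark GTTAAT or its reverse complement.
F2: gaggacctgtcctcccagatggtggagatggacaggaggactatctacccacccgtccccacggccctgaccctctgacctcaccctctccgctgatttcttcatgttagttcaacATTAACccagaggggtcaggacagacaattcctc
F13B: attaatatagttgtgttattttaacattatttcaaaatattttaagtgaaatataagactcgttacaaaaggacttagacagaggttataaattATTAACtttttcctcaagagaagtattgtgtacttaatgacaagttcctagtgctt
KLKB1: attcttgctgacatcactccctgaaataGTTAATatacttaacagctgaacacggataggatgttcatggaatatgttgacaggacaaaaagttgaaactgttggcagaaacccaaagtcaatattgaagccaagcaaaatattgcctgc
SERPINA10: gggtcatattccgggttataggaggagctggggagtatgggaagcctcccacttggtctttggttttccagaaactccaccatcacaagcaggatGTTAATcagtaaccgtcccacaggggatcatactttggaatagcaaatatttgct
The match began 34 bases before the start in F2, 56 in F13B, 122 in KLKB1 and 55 in SERPINA10. With CU27, F2 fell by 0.90, FGA (-0.67), FGB (-0.76) and SERPINA10 (0.42) did not pass, and F13B, KLKB1 and PLG were below the floor.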

How the data were processed

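The values are the log2 signals deposited by the authors in a series-wide table; per the submitters' processing notes the tool was MAS5, with scaling not given in the sources used here. That the values are log2 was read from their range. No step records depth; with 2 arrays a group, the number of arrays limits the precision. Biotin-labelled cRNA from total RNA was hybridised, per the labels' protocols. Probe sets were named from the platform annotation, and 44961 of 44988 single-symbol probe sets matched the RefSeq gene table. Control probe sets were left out. Genes with a group mean at or above the floor (50th percentile) were fitted in limma 3.58.1 (R 4.3.3) with lmFit and eBayes with an intensity trend, on 6 arrays and 3 groups (3 residual degrees of freedom), with Benjamini-Hochberg adjustment over 11383 genes at 0.05. Line differences used arrays centred on their median over tested genes. An "at least" fold sets the higher group mean against the floor where the lower group mean lies under it, on whichever of the deposited and the shifted scale gives the smaller fold. The adjusted p beside such a fold tests the full difference, with the values under the floor included, and does not test the bound. The script was tested on simulated data: it recovered nearly all larger changes and missed many smaller ones, and the criterion for passing was loosened after this was seen, so a gene that did not pass may still have changed. Members and gene lists were chosen with earlier results of these data known. Values are given for members that changed at least 2-fold, fibrinogen chains and genes that a role compares, and for at most 4 genes past the test of each other list, by smallest p. In each Huh7.5.1 group replicates carry the numbers 1 and 2; with only 2 pairs and a correlation of their deviations of 0.179 they were not taken as pairs. Alternatives were other floors, scalings, probe set rules, fits without an array or without the trend, only the arrays compared, all 8 columns and the replicate block. The fit on all 8 columns takes part of its spread from the computed Hep3b CU27 columns. It stays in the counts of alternatives but is no independent check.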

Additional observations from a re-analysis of the deposited data

How the results depend on the processing

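Of 399 values of single members with CU27 over 17 alternatives, 342 kept their direction and side of the threshold, 33 lost and 14 gained the call, and 10 changed sign without a call. Of 375 between the lines over 16 alternatives, 339 held, 2 lost (both F12), 22 gained and 12 changed sign. Leaving out 1 array moved the members changed by CU27 from 12 to between 4 and 14 and all genes changed from 2809 to between 893 and 2889: 893 genes without Huh7.5.1 DMSO replicate 2, 1631 when DMSO replicate 1 was left out and 1515 when CU27 replicate 2 was. Leaving out 1 array in turn, the CU27 difference lay between -0.34 and 0.015 for PROS1, -0.052 and 0.17 for PROZ, -0.16 and 0.37 for SERPINA5, -0.26 and 0.31 for SERPIND1 and -0.20 and 0.24 for SERPINF2, turning sign without Huh7.5.1 DMSO replicate 1 (PROZ, SERPINA5, SERPIND1, SERPINF2), CU27 replicate 1 (PROZ, SERPIND1) or CU27 replicate 2 (PROS1). Centred arrays gave SERPIND1 -0.0040 and SERPINF2 -0.0084, and the mean of all probe sets gave SERPINF2 -0.035. Between the lines, leaving out an array gave PROC -0.044 to 0.10 (negative without Huh7.5.1 DMSO replicate 2), TFPI -0.13 to 0.46 (negative without Hep3b replicate 3) and PLAUR -0.14 to 0.26 (negative without Hep3b replicate 2). PROC turned to -0.057 after quantile normalisation, -0.0275 at the 25th percentile floor, -0.089 with no floor, -0.46 as the mean of all probe sets (past the test, adjusted p = 0.0279) and -0.014 without cross-hybridising (_x_at and _s_at) probe sets. PLAUR turned to -0.16 after quantile normalisation, -0.055 with no floor, -0.33 as the mean of probe sets and -0.53 without cross-hybridising ones (past the test, adjusted p = 0.0445). MCFD2 between the lines, whose call was lower, turned to 0.97 and 1.79 under those last probe set rules, in that order, both past the test. The cause of these turns was not tested. With the replicate block, 16 members (15 lower, 1 higher) and 3526 genes passed with CU27; the numbers 1 and 2 were not shown to pair the arrays. No paired analysis was possible between the lines because they share 1 replicate number.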
